A study of Mus musculus with 6 samples.

Results

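The genes described here are 45 mouse genes of the interferon response and of nucleic acid sensing, chosen by name: 10 transcription factors, 10 sensors with their adaptor, 16 antiviral effectors, the ubiquitin-like protein ISG15 and its protease, 3 interferon-induced GTPases and 4 other induced genes. Each gene was represented by its brightest array probe, and 30 of the 45 could be tested because that probe was well above background, by the scanner software's flag, on at least 3 of the 6 arrays. The test covered 22133 genes in all.

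Cells recognise foreign or misplaced nucleic acid through cytosolic helicases such as RIG-I and MDA5 and through Toll-like receptors in endosomes, and these sensors activate IRF3 and IRF7, which switch on interferon genes. Secreted interferon binds its receptor and drives STAT2 and IRF9 onto interferon-stimulated response elements in front of antiviral genes, while IRF1 acts in the response to interferon gamma. The induced proteins degrade viral RNA, block translation or trap virus particles. In blood-forming cells, interferon is known to alter the growth of progenitors and erythroid output.

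The study used G1E-ER-GATA-1, an erythroid mouse line in which endogenous GATA-1 is missing and a fusion of GATA-1 with the oestrogen receptor's hormone-binding domain takes its place. All 6 samples shared that genotype, a medium with erythropoietin, Kit ligand and puromycin, siRNA nucleofection at 0 h and again at 24 h, β-estradiol from 24 h and harvest at 48 h. They differed in the siRNA, which was non-targeting in 3 control samples and specific for Mi2β in 3 knockdown samples. Controls thus also received transfected RNA, and untransfected cells were not analysed here. Nothing in the labels says that replicates were separate cultures, and p-values therefore reflect the spread among these arrays alone, which may be technical. The comparison addresses which transcripts depend on Mi2β, the nucleosome-remodelling ATPase of the NuRD complex, in cells maturing under GATA-1.

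Detection differed between arrays, and knockdown replicate 2 stood apart. On the control arrays 53.1% to 56.5% of all probes were well above background, and on knockdown replicates 1 to 3 the shares were 61.3%, 74.0% and 48.5%. Among the 45 genes, 28 were well above background on each control array, and 31, 37 and 28 on knockdown replicates 1 to 3. The siRNA target matched the labels: Chd4, the gene for Mi2β, was 2.48-fold lower on the knockdown arrays (log2 change -1.31, SE 0.1, limma adjusted p = 0.00161, n = 3 per group). Each array hybridised RNA pooled from many cells, so fewer cells expressing a gene and less of its RNA per cell cannot be told apart.

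The interferon-response genes moved in both directions. Of the 30 tested, 4 rose (Irf1, Oas3, Irf5 and Ddx58) and 5 fell (Isg20, Ifit2, Ifi47, Stat2 and Irf3) at an adjusted p under 0.05 (limma, Benjamini-Hochberg over all genes). Over all genes tested, 9.56% passed in either direction, 4.99% upward and 4.56% downward, and among genes whose probe has a RefSeq accession, as those of these 45 do, 12.4% passed. The fitted changes were positive in 15 genes and negative in 15, with a median log2 change of 0 against -0.03 over all genes. Groups did not overlap for 9 genes with higher and 11 with lower knockdown values, against 12.7% and 18.4% of all genes. All 9 genes past the threshold were well above background on all 6 arrays. Oas1a, Oasl1 and Mx2 entered the test mainly through the knockdown arrays, where they were higher, so the counts over the tested genes are a description only. Of the 45 genes, 13 had more than 1 probe and 6 had at least 2 tested probes, among them Oas1a, whose probes are compared below. The second probes of Irf1 and Ddx58 were below the filter. With quantile normalization the split was 6 risen and 4 fallen. The plot of changes by role shows rises and falls among the transcription factors and among the antiviral effectors.

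**Figure D1:**
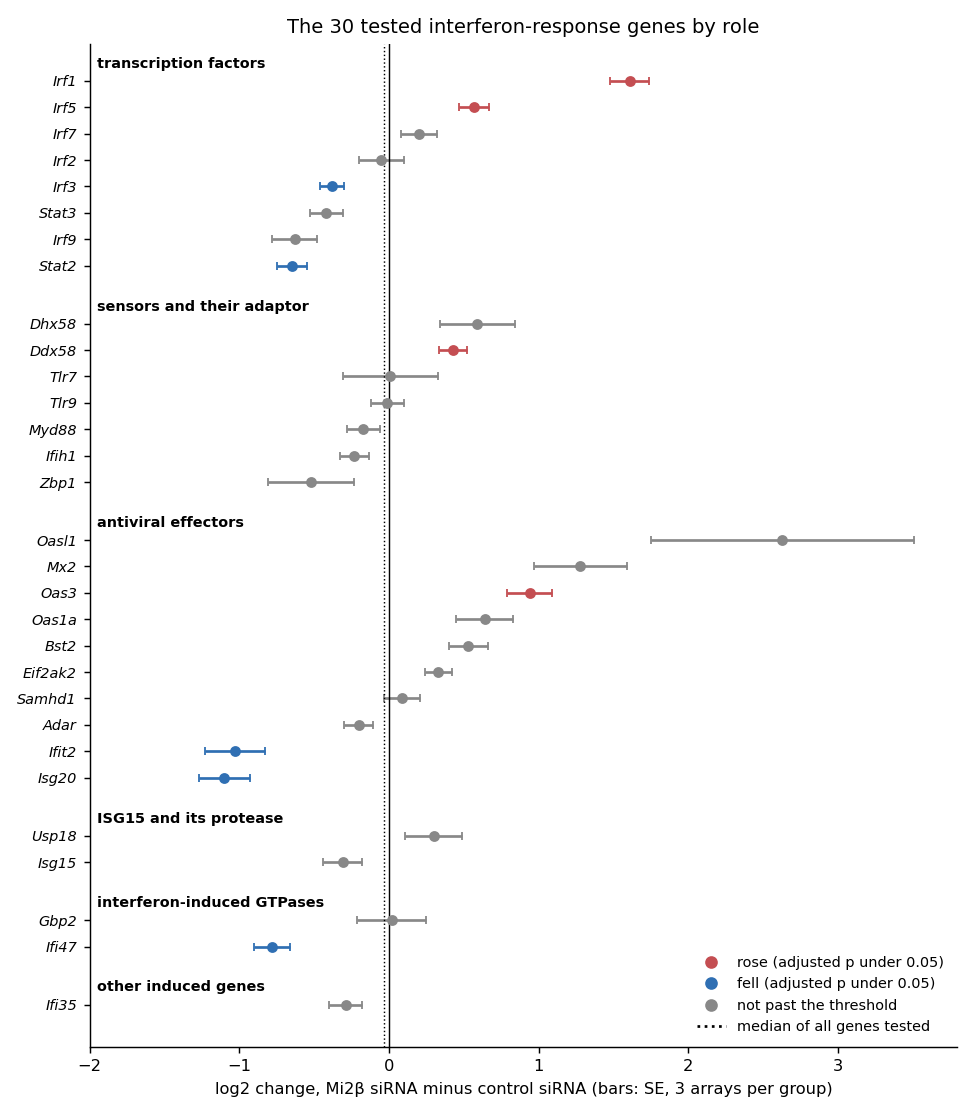
Log2 change (knockdown minus control, x axis) with its standard error for each of the 30 tested genes, grouped by role, from 3 arrays per group; red marks genes that rose, blue genes that fell and grey genes not past an adjusted p of 0.05, and the dotted line is the median of all genes, -0.03. Irf1 and Isg20 mark the largest rise and the largest fall past the threshold, at 1.61 and -1.10. Oasl1 at 2.63 has the widest error bar and only 1 detected control array.

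Among the transcription factors, Irf1 rose most. IRF1 activates interferon-gamma target genes and is itself induced by interferon gamma. On the log2 scale relative to the array's 75th percentile, which is the scale of every array value given below, its probe (chr11:53590746-53590805, mm9 as for all probes) read -2.93, -3.14 and -3.34 in control replicates 1 to 3 and -1.53, -1.45 and -1.61 in knockdown replicates 1 to 3. All 3 knockdown arrays lay above all 3 controls, a 3.05-fold difference (log2 change 1.61, SE 0.13, limma adjusted p = 0.00175). Irf1 was the only one of the 9 genes to pass the threshold under all 19 alternative settings, with adjusted p from 0.00015 to 0.0279 and changes from 0.90 to 1.71.

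Irf5, which acts downstream of Toll-like receptors, also rose. Its probe at chr6:29486901-29486960 read -2.27, -2.31 and -2.29 in the controls and -1.76, -1.57 and -1.84 in the knockdown samples. The SD of the controls was 0.02 and every knockdown array was higher (log2 change 0.57, SE 0.10, adjusted p = 0.025).

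Stat2 and Irf3 fell. STAT2 is part of the factor that type I interferon activates, and IRF3 is the constitutive factor that sensors phosphorylate. Stat2 (probe at chr10:127729834-127729893) read 2.20, 2.45 and 2.39 in the controls and 1.66, 1.71 and 1.73 after knockdown. The groups did not overlap, and the knockdown level was 1.57-fold lower (log2 change -0.65, SE 0.10, adjusted p = 0.0162). Irf3 (probe at chr7:52257700-52257759) read 5.0, 5.03 and 5.0 in the controls and 4.65, 4.60 and 4.63 after knockdown. Its groups were far apart relative to their spread but close in size, 1.3-fold (log2 change -0.38, SE 0.082, adjusted p = 0.0405).

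Irf9, the DNA-binding partner of STAT2, had lower knockdown values without passing the threshold. Its group means were 2.53 ± 0.07 and 1.90 ± 0.26 (SD, n = 3 each), with a log2 change of -0.63 and an adjusted p of 0.0552. Stat3, which carries signals of interleukin 6 and related cytokines, had a change of -0.42 (adjusted p = 0.0769). Irf7, the interferon-amplifying factor, and Irf2, an antagonist of IRF1, had changes of 0.20 and -0.05, and their groups overlapped. The lymphoid and myeloid factors Irf4 and Irf8 were below the detection filter.

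**Figure D2:**
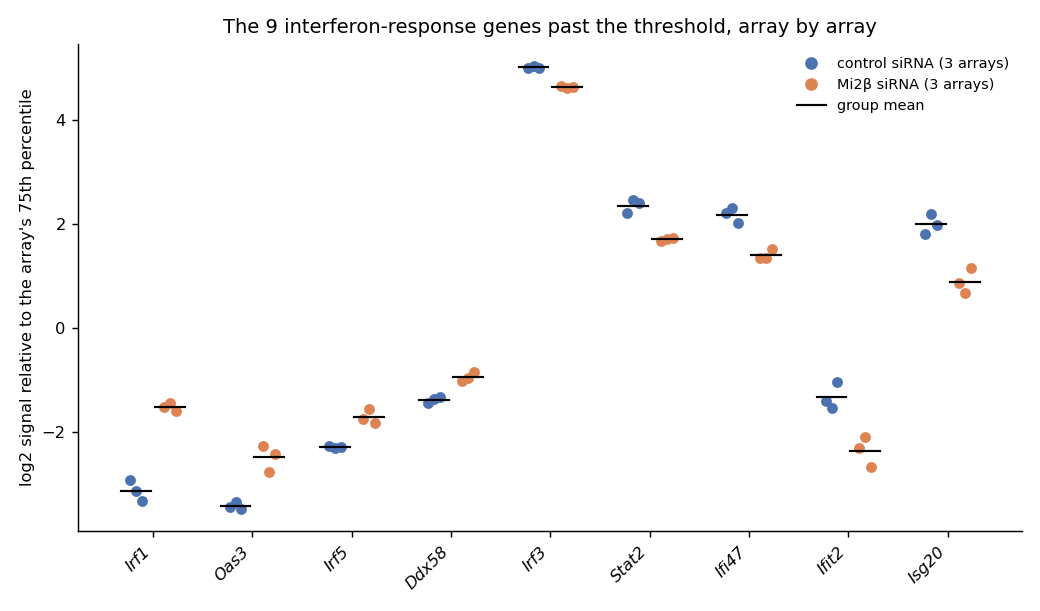
Log2 signal relative to the array's 75th percentile (y axis) of the 9 genes past the threshold, on each of 3 control (blue) and 3 knockdown (orange) arrays, with group means as lines; genes run from the largest rise to the largest fall. In every gene the points of the groups do not overlap, and the gap is widest for Irf1, at a log2 change of 1.61.

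Of the sensors and their adaptor, 7 of 10 were tested and Ddx58 alone passed the threshold. Ddx58 encodes RIG-I, the helicase that binds viral RNA with a triphosphate end. Its probe at chr4:40151893-40151952 read -1.44, -1.37 and -1.34 in the controls and -1.03, -0.97 and -0.86 after knockdown. Every knockdown array was higher, by 1.35-fold (log2 change 0.43, SE 0.092, adjusted p = 0.0411). The other helicases of the same family were not past the threshold: Ifih1, encoding MDA5, had a change of -0.23 (adjusted p = 0.249), and Dhx58, encoding LGP2, had a change of 0.59 (SE 0.25, adjusted p = 0.23). For Dhx58, knockdown replicates 1 and 2 read -2.91 and -2.94 and replicate 3 read -3.78, inside the control range of -3.95 to -3.72.

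The endosomal receptors Tlr7 and Tlr9, which sense RNA and DNA, were well above background on all 6 arrays by the probe used, with changes of 0.01 (SE 0.32) and -0.01 (SE 0.11). The other probes of Tlr7 were below the filter. Myd88, the adaptor of most Toll-like receptors, had a change of -0.17 (SE 0.11). Zbp1, a sensor of Z-form nucleic acid that can trigger necroptosis, was detected on 3 control and 2 knockdown arrays. Its probe had a change of -0.52 (SE 0.29) and its second tested probe one of 1.17 (SE 1.1), neither past the threshold. Tlr2, Tlr3 and Tlr4 were below the filter.

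Among the 10 antiviral effectors tested, 1 gene rose and 2 fell. Fitted changes ran from -1.10 for Isg20 to 2.63 for Oasl1, which had only 1 detected control array. The latter size is therefore not a measured difference. Oas3, one of the synthetases whose 2-5A product activates the ribonuclease RNase L, rose. Its probe at chr5:121203598-121203657 read -3.44, -3.36 and -3.49 in the controls and -2.27, -2.78 and -2.42 after knockdown. All knockdown arrays lay above the controls, with the smallest gap in replicate 2 (1.92-fold, log2 change 0.94, SE 0.15, adjusted p = 0.0169). With normexp background correction the change was 0.36 (adjusted p = 0.0417).

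For Oas1a, another synthetase of the family, the array's probes gave different sizes of change, and the probes were compared after their values had been seen. Their last 30 bases, copied from the array file, show the difference between them, with the polyadenylation hexamer AATAAA in capitals in the second (mm9 coordinates, minus strand).
Oas1a brighter probe, chr5:121348338-121348397: taaaaaggatggttcccgagtgagctcctg
Oas1a second probe, chr5:121346735-121346794: aagtctgatcaacAATAAAccacagcaggt
The probes start 1603 bases apart. The longest run that the second shares with any probe of another Oas gene was 14 bases, with Oas1f, and the brighter one shares at most 8 bases with any. AATAAA was present in 13 of the 45 genes' probes (28.9%) and in 12.5% of the probes of all genes tested.

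The brighter probe read -4.91, -4.99 and -4.33 in the controls, where it was well above background on 1 array, and -4.16, -3.97 and -4.15 after knockdown, on 2 arrays. Its groups did not overlap, with a log2 change of 0.64 (SE 0.19) that did not pass the threshold (adjusted p = 0.107). No control array had the second probe well above background (-6.74, -6.70 and -6.20), and every knockdown array did, at -2.61, -2.74 and -2.74. Set against the lowest detected signal of each control array, its knockdown level was 4.3-fold higher. Other probes without detection could read above that signal, so this value is an approximate bound. The second probe entered the test through the knockdown arrays alone and has no measured control level, so no fitted change is given for it and no call for Oas1a is drawn from it.

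**Figure D3:**
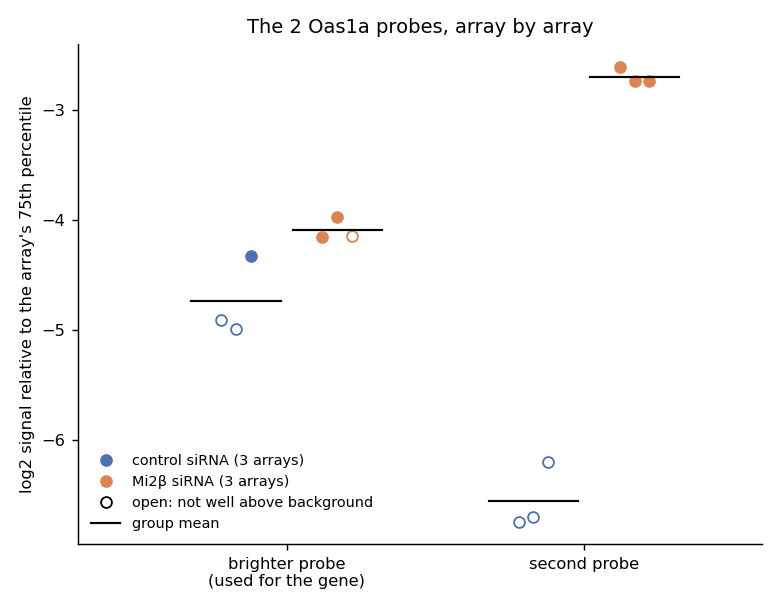
Log2 signal relative to the array's 75th percentile (y axis) for both Oas1a probes on 3 control (blue) and 3 knockdown (orange) arrays; open points were not well above background and lines are group means. The second probe lies between -6.74 and -6.20 in the controls and between -2.74 and -2.61 after knockdown, while the brighter probe's means are -4.74 and -4.09.

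Oasl1, an Oas-like gene whose protein inhibits Irf7 translation, had the largest fitted change of the tested genes and the largest error. Its probe at chr5:115387861-115387920 read -3.57, -7.10 and -4.91 in the controls, with 1 array well above background, and -2.39, -2.20 and -3.09 after knockdown, with all 3. The groups did not overlap, but the spread between controls (SD 1.78) left the log2 change of 2.63 (SE 0.88) short of the threshold (adjusted p = 0.134). With only 1 detected control array, the size of that change is not a measured difference. Oas2 and Oasl2 were not well above background on any array.

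Several Oas genes lie together on chromosome 5, and the changes of those read here differed in direction. In probe order on mm9, and leaving out other Oas genes of the array that are in neither list, Oas2 came first and was well above background on no array. Next, Oas3 rose by 0.94, Oas1c fell by 0.89 (SE 0.1, adjusted p = 0.00558) and Oas1b had a change of 0.03. Oas1f followed with -0.52 (adjusted p = 0.0892), then Oas1g, well above background on no array, and Oas1a, whose brighter probe had a change of 0.64. Oas1c read 0.94, 1.06 and 0.94 in the controls and 0.06, -0.01 and 0.22 after knockdown, with no overlap. Its call was lost under 2 of the 19 alternative settings. Oas1b, Oas1c, Oas1f and Oas1g are not among the 45 genes and were taken from the wider pathway list described below.

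Isg20 and Ifit2 were the effectors that fell. ISG20 is an exonuclease that degrades RNA, and IFIT2 binds RNA and restrains translation. Isg20 (probe at chr7:86065136-86065195) read 1.80, 2.18 and 1.98 in the controls and 0.85, 0.67 and 1.14 after knockdown. All knockdown arrays were lower, by 2.15-fold (log2 change -1.10, SE 0.17, adjusted p = 0.013), and its second probe had a change of -1.32 (SE 0.15, adjusted p over all probes = 0.00602). Ifit2 (probe at chr19:34650244-34650303) read -1.41, -1.54 and -1.04 in the controls and -2.31, -2.10 and -2.68 after knockdown. Here too every knockdown array was lower, by 2.05-fold (log2 change -1.03, SE 0.20, adjusted p = 0.0311). Ifit1 and Ifit3, its neighbours on chromosome 19, were below the filter.

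Mx2, a dynamin-like antiviral GTPase, read (probe at chr16:97782327-97782386) -4.54, -4.25 and -4.78 in the controls and -3.18, -2.70 and -3.86 after knockdown. It was well above background on 1 control and 3 knockdown arrays, and its groups did not overlap, but the change of 1.28 (SE 0.31) did not pass the threshold (adjusted p = 0.0607). With 1 detected control array, the size of that change is limited by signal over background. Bst2, encoding tetherin, which holds budding virus at the cell surface, had means of 1.03 ± 0.08 and 1.56 ± 0.20 (SD, n = 3 each; adjusted p = 0.0609). Eif2ak2, the RNA-activated kinase PKR that halts translation, had a change of 0.33 (adjusted p = 0.0869). The RNA-editing enzyme Adar had a change of -0.20 and the nucleotide hydrolase Samhd1 one of 0.09, neither past the threshold.

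In the remaining groups Ifi47 alone passed. Ifi47 encodes a GTPase of the immunity-related family that acts at the vacuoles of intracellular pathogens. Its probe at chr11:48910402-48910461 read 2.20, 2.31 and 2.01 in the controls and 1.34, 1.34 and 1.52 after knockdown. Every knockdown array was lower, by 1.72-fold (log2 change -0.78, SE 0.12, adjusted p = 0.0139). Gbp2, a guanylate-binding protein, had a change of 0.02 (SE 0.23). Isg15, which is conjugated to proteins like ubiquitin, had a change of -0.31 and its protease gene Usp18 one of 0.30, with adjusted p of 0.239 and 0.408. Ifi35 had a change of -0.29 (adjusted p = 0.179).

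No control array had any of the 15 genes below the filter well above background. Of these, 8 were well above background on no array at all: Irf4, Tlr3, Tlr4, Ifit1, Oas2, Oasl2, Mx1 and the chemokine gene Cxcl10. The other 7 were detected on knockdown replicate 2, and 6 of them on that array alone: Irf8, Tlr2, Ifit3, Rsad2 (encoding viperin), Ifi44 and Rtp4. Gbp3 was detected on knockdown replicates 1 and 2. Ifi44, picked as an example after its values were seen, read -5.60, -5.85 and -7.03 in the controls and -5.77, -3.09 and -6.54 after knockdown. Replicate 2 was high, while the other knockdown arrays lay within the control range. Replicate 2 was also the array with 74.0% of all probes well above background, and the part of that difference in these detections was not tested. No fold is given for these genes.

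**Figure D4:**
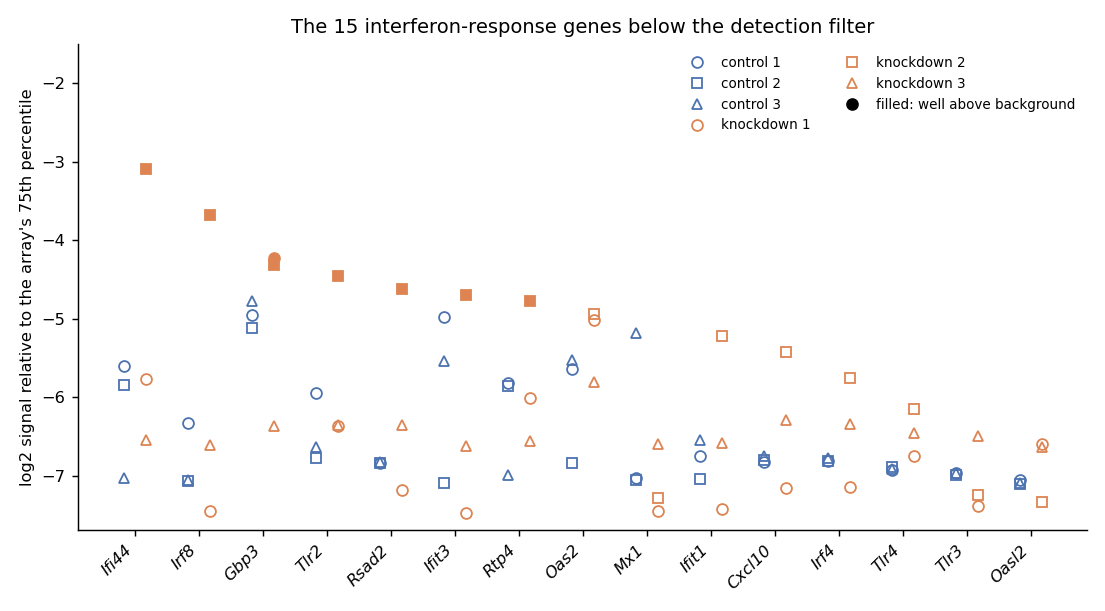
Log2 signal relative to the array's 75th percentile (y axis) of the 15 genes below the detection filter, by array (marker shape gives the replicate, blue control, orange knockdown); filled markers were well above background. All filled markers belong to knockdown arrays, 7 of them to replicate 2 and 1, for Gbp3, to replicate 1.

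Promoter sequence was compared for the 36 of 45 genes in the RefSeq promoter table (GRCm38.p6, 250 bases before to 50 after each start site, both strands, 27025 genes). The genes without an entry were Dhx58, Mx1, Mx2, Oas2, Rtp4, Tlr4, Tlr7, Usp18 and Zbp1. The pair of GAAA repeats with any 2 bases between them, the core of an interferon-stimulated response element (ISRE), was present in 16 of 36 (44.4%) and in 4.0% of all promoters. The gamma-activated site TTCNNNGAA was present in 12 (33.3%) against 9.6%, and the GATA motif AGATAA in 9 (25.0%) against 12.7%. Among genes that rose, 2 of 4 had the ISRE pair (Oas3 and Ddx58), and among genes that fell, 1 of 5 (Stat2). The gamma-activated site was present in 1 of 4 and 2 of 5, and AGATAA in 1 of 4 and 2 of 5. A gene can hold more than 1 of these motifs, and a match describes letters, not a bound site.

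The 250 bases before the start site of 4 genes show what these matches look like in genes of both directions, with matches to the interferon motifs in capitals, 5′ to 3′ in the direction of transcription.
Irf1 promoter, chr11:53769764-53770013, plus strand: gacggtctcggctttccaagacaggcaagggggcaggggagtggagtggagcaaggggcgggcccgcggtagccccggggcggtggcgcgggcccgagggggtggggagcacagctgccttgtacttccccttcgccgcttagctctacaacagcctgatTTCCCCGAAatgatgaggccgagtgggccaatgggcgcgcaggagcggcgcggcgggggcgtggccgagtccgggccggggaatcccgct
Oas3 promoter, chr5:120777660-120777909, minus strand: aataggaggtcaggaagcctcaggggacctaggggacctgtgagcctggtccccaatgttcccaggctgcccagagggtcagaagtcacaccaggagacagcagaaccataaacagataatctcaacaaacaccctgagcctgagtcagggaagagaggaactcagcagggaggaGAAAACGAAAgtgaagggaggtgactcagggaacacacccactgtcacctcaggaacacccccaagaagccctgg
Oas1a promoter, chr5:120907526-120907775, minus strand: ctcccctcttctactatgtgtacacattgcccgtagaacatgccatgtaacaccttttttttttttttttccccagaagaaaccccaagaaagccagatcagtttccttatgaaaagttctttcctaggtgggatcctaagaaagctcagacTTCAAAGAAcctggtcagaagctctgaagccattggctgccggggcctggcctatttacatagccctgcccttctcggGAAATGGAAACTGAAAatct
Stat2 promoter, chr10:128270248-128270497, plus strand: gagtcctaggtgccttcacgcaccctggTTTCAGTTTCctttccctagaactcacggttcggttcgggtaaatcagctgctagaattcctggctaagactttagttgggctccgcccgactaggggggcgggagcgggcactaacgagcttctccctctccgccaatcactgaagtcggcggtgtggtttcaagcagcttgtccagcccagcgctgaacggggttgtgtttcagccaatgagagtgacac
Irf1 holds a gamma-activated site at position -90 (first base of the match, relative to the start site) and no ISRE pair. Oas3 holds the ISRE pair at -75, and Oas1a holds overlapping matches at -20 and -14 with a gamma-activated site at -98. In Stat2 the match lies on the opposite strand, at -222. Matches of one kind thus occur before Oas3, which rose, and Stat2, which fell.

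A wider list of 131 other genes of interferon signalling, nucleic acid sensing and NF-κB gave 94 tested genes, of which 8 rose, among them Ripk3 and Ifi27l2a with 1 detected control array each, and 11 fell (20.2%; median log2 change -0.12). The shares of 9.56% over all genes and 12.4% over genes whose probe has a RefSeq accession stand beside that count. This list too was chosen with earlier results of these data known. Upstream, the receptor chains Ifnar1, Ifnar2, Ifngr1 and Ifngr2 had changes from -0.46 to 0.22, none past the threshold, and the kinases Jak1 (-0.63, adjusted p = 0.0507) and Tyk2 (-0.52, adjusted p = 0.0563) did not pass either. The interferon genes Ifnb1 and Ifng were below the filter, and no control array detected them: Ifnb1 was well above background on knockdown replicate 2 alone, the array that stood apart, and Ifng on replicates 1 and 2. These genes are named for their place in the pathway. Those that follow, with Oas1c above, are the 12 largest fitted changes past the threshold. Igtp, Tgtp1, Iigp1 and Parp14, which did not pass, are given beside their relatives or neighbours.

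The largest fitted rises were in Ripk3, the kinase of necroptosis that ZBP1 can engage, and Ifi27l2a, a small interferon-induced mitochondrial protein. Ripk3 read -5.64, -6.23 and -4.43 in the controls, with 1 array well above background, and -1.05, -0.97 and -0.94 after knockdown. Ifi27l2a read -4.65, -4.53 and -4.19 in the controls, with 1 array well above background, and -0.08, -0.01 and 0.05 after knockdown. In both genes all knockdown arrays lay above every control. Both entered the test through the knockdown arrays and 2 of their 3 control values were not well above background, so the size of their fitted changes is not a measured difference and is not given. The cytokine gene Tnf rose by 2.07 (SE 0.15, adjusted p = 0.00119), Socs1, a feedback inhibitor of JAK kinases, by 0.87 (adjusted p = 0.00934), and Sting1, the adaptor of cytosolic DNA sensing listed as Tmem173 on the array, by 0.83 (adjusted p = 0.00729). Under the 19 alternative settings Tnf kept its call, with changes from 0.84 to 2.17. Socs1 lost its call under 3 of them and Sting1 under 4, with changes from 0.63 to 0.96 and from 0.27 to 0.88.

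Irgm1 and Irgm2, GTPases of the same family as Ifi47, fell (log2 changes -1.10 and -0.86, adjusted p = 0.00263 and 0.0205). Their relatives Igtp, Tgtp1 and Iigp1 had changes of -0.51, 0.2 and -0.08 (adjusted p = 0.0586, 0.732 and 0.846). Irgm1, Irgm2, Ifi47, Igtp and Tgtp1 lie on chromosome 11, with Tgtp1 between Irgm1 and Ifi47 in probe order. Iigp1 lies on chromosome 18. Dtx3l and Parp9, neighbours on chromosome 16 whose products form a ubiquitin ligase complex, had changes of -1.05 and -0.99 (adjusted p = 0.0055 and 0.00751). Parp14, next to Dtx3l in probe order among the genes read, had a change of -0.17 (adjusted p = 0.372). Nfkb2, encoding an NF-κB subunit, had a change of -1.06 (adjusted p = 0.00288), and Rnaseh2a, the catalytic subunit of the enzyme that removes RNA from DNA hybrids, one of -0.80 (adjusted p = 0.0057). Irgm1, Irgm2, Dtx3l, Parp9, Nfkb2 and Rnaseh2a thus fell, and Igtp, Tgtp1, Iigp1 and Parp14 did not pass. Under the 19 alternative settings Irgm1 and Nfkb2 kept their calls. Dtx3l and Parp9 each lost theirs under 1 setting, Rnaseh2a under 3 and Irgm2 under 7.

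**Figure D5:**
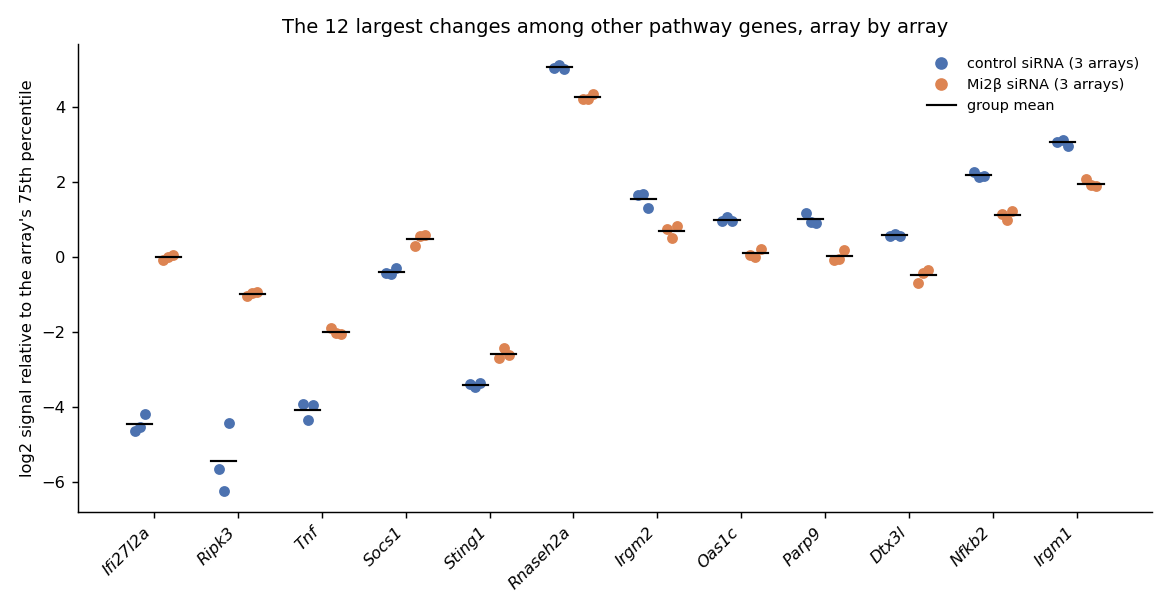
Log2 signal relative to the array's 75th percentile (y axis) of the 12 largest changes past the threshold among the other pathway genes, on 3 control (blue) and 3 knockdown (orange) arrays, with group means as lines. No gene has overlapping groups; for Ifi27l2a and Ripk3 2 of the 3 control points were not well above background.

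Markers of other blood cells were read beside these results, as summed signal in units of the array's 75th percentile. All 12 erythroid markers were well above background on all 6 arrays (sums of 1980 to 2100 in controls and 2240 to 2500 after knockdown; 3 rose and 2 fell). Of 13 macrophage and monocyte markers, 5 were well above background on all arrays and Lyz2, Mrc1 and Clec7a on none, with sums of 17.3 to 22 and 21.4 to 22.8, and Cd68 rose. Dendritic cell sums were 247 to 267 and 242 to 260, with 2 of 6 markers on all arrays and Itgax, Clec9a and Cd209a on none, and the probe of Siglech alone made up nearly all of that sum. The 8 mast cell markers summed to 1.13 to 1.35 in controls and 3.52 to 4.01 after knockdown, with Fcer1a and Ms4a2 on no array. Of these, 3 rose, but Tpsab1 among them had no detected control array and entered the test through the knockdown arrays alone. Hdc was the brightest mast cell marker in both groups. The 8 megakaryocyte markers summed to 33.1 to 38.8 and 11.4 to 14.9, with 2 fallen and Ppbp on no array. Neutrophil sums (9 markers, 3 on all arrays, Mpo, Ly6g and S100a8 on none) were 2.86 to 4.29 and 3.38 to 3.82, with Cebpe risen by 1.36 (adjusted p = 0.0264), B cell sums (6 markers, 1 on all arrays, Ms4a1 and Ebf1 on none) 0.236 to 0.287 and 0.24 to 0.48, and T and NK cell sums (8 markers, 3 on all arrays) 9.25 to 10.9 and 9.28 to 10.5, with Lck risen by 1.62 (adjusted p = 0.000622). The part of these shifts in the interferon-response results was not tested.

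Most of the 9 calls rested on having all 6 arrays. Without any one array Irf1 kept its call. Isg20 lost it without control replicate 2 (adjusted p = 0.0505) or knockdown replicate 1 (0.0692), and Ifi47 without control replicate 1 (0.0629), knockdown replicate 1 (0.0782) or knockdown replicate 2 (0.0538). Stat2 lost it without control replicate 2 (0.0545), control replicate 3 (0.0505), knockdown replicate 1 (0.0893) or knockdown replicate 2 (0.0573). Oas3 and Ifit2 kept it without knockdown replicate 2 alone (0.0123 and 0.0453), with other adjusted p of 0.0537 to 0.0712 and 0.0628 to 0.114. Irf5 kept it without knockdown replicate 3 alone (0.0445), with others of 0.0648 to 0.106. Ddx58 and Irf3 lost it whichever array was left out (0.0776 to 0.135 and 0.0819 to 0.158). Gained calls were Mx2, Irf9 and Dhx58 without knockdown replicate 3 and Oas1a without control replicate 3. Without knockdown replicate 2, the array that stood apart, Irf1, Oas3, Isg20 and Ifit2 passed.

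The slide had 2 arrays per group in row 1 and 1 per group in row 2. Control replicates 1 to 3 were in columns 1, 3 and 1, and knockdown replicates 1 to 3 in columns 2, 4 and 2. Slide column and siRNA thus cannot be told apart. All 9 genes had the same sign of change in both rows: Irf1 differed by 1.55 and 1.73, Isg20 by -1.23 and -0.84, and Ifit2 by -0.73 and -1.64. With slide row as a block 7 of the 30 passed: Ifit2 (adjusted p = 0.0577), Irf3 (0.0751) and Ddx58 (0.061) lost their call and Mx2 (0.028) gained one. In row 1 alone 2 passed, Irf1 and Ifi47.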

How the data were processed

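Total RNA of 3 control and 3 knockdown samples was measured on 6 Agilent arrays with Cy3 as the single dye. The deposited intensities are linear and, per the file headers, come from Feature Extraction 10.7.3.1, with background already subtracted and no normalization between arrays. Limma is also named in the submitters' processing notes, with settings not given in the sources used here. A deposited value table repeated these intensities (100% of its values), with column medians of 21.23, 16.95 and 20.92 for the controls and 25.9, 36.93 and 17.83 for the knockdown samples, so it is linear and uncentred.

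Control spots and outlier spots were left out, spots of a probe were averaged, and log2 of the processed signal minus each array's 75th percentile over spots was used. A probe was kept if at least 3 arrays had it well above background, and the brightest probe stood for its gene. Names were updated through RefSeq accessions (27509 of 29150 matched). The test was limma's moderated test (lmFit, eBayes; limma 3.58.1, R 4.3.3), two-sided and without covariates. P-values were adjusted by Benjamini-Hochberg over 22133 genes, and genes past an adjusted 0.05 are said to have risen or fallen. On simulated data the fit recovered 12% of 1.5-fold, 56% of 2-fold, 78% of 4-fold and 94% of 8-fold changes. A gene not past the threshold is therefore not shown to be unchanged. A probe with no detected control array has only an approximate bound, the knockdown mean against the mean of each control array's lowest detected signal or the probe's own value, whichever is higher. The number of arrays limits precision.

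The 45 genes, the wider list and the markers were chosen with earlier results of these data known. Array values are given for genes past the threshold and for the 8 largest changes, and of the wider list for at most the 12 largest. Counts over the wider list include a gene that is not reported here. Probe coordinates are mm9 per the file headers. No genome of that build was used, so exons are not given. Promoters are from RefSeq, GRCm38.p6.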

Additional observations from a re-analysis of the deposited data

How the results depend on the processing

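Under 19 alternatives (13 processing choices, 1 of them, the percentile taken over probes, chosen after seeing the data, and 6 that leave out an array), none of the 9 genes changed direction. The count of interferon-response genes called, 9, became 14 with normexp background correction, 4 with array median scaling, 2 with no detection filter, 2 in slide row 1 alone, 14 with an intensity trend and 17 with array weights, and 1 to 8 when 1 array was left out. The wider list, 19, gave 7 with median scaling, 12 with no filter, 9 in row 1 alone, 29 with a trend and 35 with array weights, and 11 to 19 when 1 array was left out. All genes called, 2115, became 790, 993, 720, 3306 and 4729 in the same order, and 813 to 1579 when 1 array was left out. Median scaling moved the median change of all genes to -0.27 and of the interferon-response genes to -0.24, and Irf1 then had a change of 1.37. Chd4 passed under every alternative. With the replicate number as a block, 1 interferon-response gene (Irf1), 6 of the wider list and 685 of all genes passed; same-numbered samples had correlations of deviations of 0.21, -0.32 and 0.13, so the numbers were not taken to pair the samples. The causes of these differences were not tested. Genes near the lowest detected signal, such as Oasl1, Mx2 and Oas1a, are limited by signal over background.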
